A study of Drosophila melanogaster with 6 samples.

Results

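The secreted Nimrod B genes of Drosophila melanogaster, NimB1, NimB2, NimB3, NimB4 and NimB5, were followed in whole-fly RNA sequencing after a bacterial infection. They were found by their FlyBase symbols, and all 5 were among the 17558 genes of the deposited expression table. The study compared 3 libraries of CR46018-overexpressing flies with 3 libraries of control flies, all adult males taken 12 h after they were injected with Micrococcus luteus, whose Gram-positive cell wall triggers Toll signalling. The overexpressing flies carried Gal80ts, a temperature-sensitive repressor of the Gal4 activator, and a Tub driver, active in most tissues, that expressed CR46018, a long non-coding RNA. The control flies carried the same Gal80ts with Tub-Gal4 over P{CaryP}attP40, an empty landing site for transgenes. By its title, the study asked how CR46018 bears on the Toll response. No uninfected flies were analysed here, so the levels below are those of infected flies in both groups. Overexpression and any other difference in genetic background between the groups cannot be told apart.

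Nimrod proteins carry repeats of a short, cysteine-rich domain of the EGF type called the NIM repeat. The Nimrod C proteins and their relative Eater sit in the membrane of hemocytes, the blood cells of the fly, and act as receptors for bacteria or dying cells. The Nimrod B proteins have no membrane anchor and are released into the hemolymph. NimB4 binds dying cells and promotes their clearance by phagocytes, and NimB5 is made by the larval fat body, where it restrains the number and the adhesion of hemocytes when food is poor. In the mosquito Anopheles gambiae, a NimB2 protein contributes to the phagocytosis of bacteria.

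Expression was deposited as FPKM (fragments per kilobase of exon, scaled to the size of the library). Over the genes whose FPKM gave back whole reads, these came to 15988428 to 17396893 per library in overexpressing flies and 15084193 to 16935563 in controls. CR46018 itself, listed as an antisense RNA (asRNA:CR46018), had few assigned reads in either group. These were 3, 1 and 0 in overexpression replicates 1, 2 and 3 and 0 in each control library. Whether reads were counted by strand is not given in the sources used, so these counts may not give the level of its transcript. The assigned reads therefore neither show the overexpression nor exclude it, and the group is named here by its label. Whether the replicates of a group were separate sets of flies is not stated in the labels, and p-values therefore reflect a spread that may in part be technical. Across the 12251 genes with a mean of at least 1 FPKM, 300 were higher and 773 lower in overexpressing flies. These counts were 826 and 484 with FPKM rescaled to a common total, 860 and 728 with voom on recovered reads, 137 and 427 without overexpression replicate 3, and 162 and 458 or 155 and 439 without control replicate 1 or 2. Tests used limma on log2(FPKM + 1), two-sided, with Benjamini-Hochberg adjustment over all genes tested and a threshold of 0.05. All differences below are on that scale, overexpression minus control, and understate the change of low genes.

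The NimB genes lie side by side on the left arm of the second chromosome. On chromosome 2L of the dm6 assembly they occupy 13963507 to 13972173, a stretch of 8667 bp. In that order come NimB1 (FBgn0027929, 13963507 to 13965088, plus strand), NimB2 (FBgn0028543, 13965012 to 13967018, minus strand), NimB3 (FBgn0054003, 13967464 to 13967985, minus strand), NimB4 (FBgn0028542, 13968280 to 13969976, minus strand) and NimB5 (FBgn0028936, 13970177 to 13972173, plus strand). NimB4 and NimB5 point away from each other, with annotated starts 201 bp apart. NimB1 and NimB2 run towards each other, and their last exons overlap by 77 bp. Whether reads were counted by strand is not given in the sources used, so reads in that overlap cannot be assigned with certainty to either gene. NimB3 is the shortest, with 466 bp of exons, against 1289 bp for NimB1, 1435 bp for NimB2, 1478 bp for NimB4 and 1395 bp for NimB5.

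All 5 genes were read in every library, at levels that differed widely among them. On the FPKM scale, which allows for gene length, the order was NimB2, NimB3, NimB1, NimB5 and NimB4 in each of the 6 libraries. No 2 neighbours in that order had overlapping values within either group of 3 libraries. NimB2 averaged 176 ± 19.2 FPKM in overexpressing flies and 198 ± 9.08 FPKM in controls (SD, n = 3 each), a level above that of 95.9% of the genes tested. NimB4, at the low end, averaged 5.35 ± 1.13 FPKM in overexpressing flies and 8.58 ± 0.738 FPKM in controls. Its reads per library ran from 114 to 182 in overexpressing flies and from 221 to 264 in controls. At 114 reads, counting alone gives a coefficient of variation of 9.37%, against a spread of 21.1% between the 3 overexpression libraries.

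**Figure D1:**
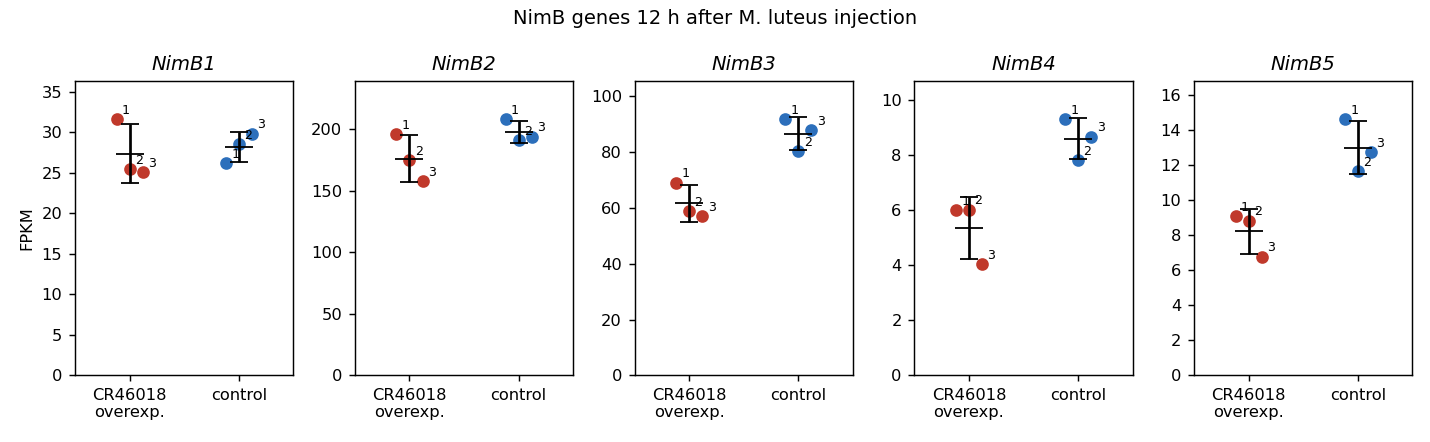
Level of each NimB gene in FPKM (vertical axis, from 0, scaled per panel) in the 3 CR46018-overexpressing and 3 control libraries. Numbers beside points give the replicate, bars the mean and SD. The groups are apart for NimB3, NimB4 and NimB5 and overlap for NimB1 and NimB2.

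Of the 5 NimB genes, 3 fell in overexpressing flies (NimB3, NimB4 and NimB5), 0 rose, and NimB1 and NimB2 did not pass. Over all tested genes, 6.31% were called lower, 2.45% higher and 8.76% in either direction. In 16.2% of them every overexpression library lay below every control library, as it did for NimB3, NimB4 and NimB5. The median difference of the 5 genes was -0.49, against -0.002 over all tested genes. In bulk samples such as these, fewer cells of a type and less RNA per cell cannot be told apart.

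NimB5 measured 9.09, 8.83 and 6.76 FPKM in overexpression replicates 1, 2 and 3, against 14.6, 11.6 and 12.7 FPKM in control replicates 1, 2 and 3. Every overexpression library was below every control library. The mean was 36.7% lower, at 8.23 ± 1.28 FPKM in overexpressing flies and 13.0 ± 1.50 FPKM in controls (SD, n = 3 each), a log2 difference of -0.60 ± 0.12 (SE; limma adjusted p = 0.0196). The call rested on control replicate 1 being included: without it the difference was -0.52 and the limma adjusted p 0.0604, the highest of 14 alternatives, which began at 0.00852.

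NimB4, the efferocytosis factor, measured 5.99, 6.01 and 4.04 FPKM in overexpression replicates 1, 2 and 3, against 9.28, 7.81 and 8.65 FPKM in control replicates 1, 2 and 3. Here too the groups did not overlap, and overexpression replicate 3 was the lowest library. The mean was 37.7% lower in overexpressing flies, a log2 difference of -0.61 ± 0.13 (SE; limma adjusted p = 0.0303). This was the least stable of the 3 calls: the adjusted p was 0.0941, 0.0615 and 0.0727 without control replicates 1, 2 and 3, and 0.0601 with no filter on low values. Over 14 alternatives it ran from 0.0148 to 0.0941.

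NimB3, for which no role is given here, measured 68.9, 58.7 and 56.9 FPKM in overexpression replicates 1, 2 and 3, against 91.6, 80.2 and 87.7 FPKM in control replicates 1, 2 and 3. The highest overexpression library lay below the lowest control library. The mean was 28.9% lower, at 61.5 ± 6.5 FPKM in overexpressing flies and 86.5 ± 5.80 FPKM in controls (SD, n = 3 each), a log2 difference of -0.49 ± 0.08 (SE; limma adjusted p = 0.0112). It kept its call in each of 14 alternatives, with adjusted p between 0.00596 and 0.0429.

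NimB2, the most abundant member, measured 196, 175 and 157 FPKM in overexpression replicates 1, 2 and 3, against 208, 191 and 194 FPKM in control replicates 1, 2 and 3. Overexpression replicate 1 lay within the control range, so the groups overlapped. The log2 difference was -0.17 (95% interval -0.36 to 0.02; limma adjusted p = 0.26).

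NimB1 measured 31.6, 25.4 and 25.1 FPKM in overexpression replicates 1, 2 and 3, against 26.2, 28.5 and 29.9 FPKM in control replicates 1, 2 and 3. The overexpression group held both the highest and the lowest library. The log2 difference was -0.05 (95% interval -0.27 to 0.17; limma adjusted p = 0.826), and its sign turned positive when FPKM were rescaled to a common total. The intervals of NimB1 and NimB2 do not reach the size of the differences of NimB3, NimB4 or NimB5. However, those differences carry intervals of their own, of -0.68 to -0.29, -0.92 to -0.30 and -0.88 to -0.33.

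Within each group the members shared their low and high libraries. All 5 genes had their lowest overexpression value in replicate 3, and 4 of the 5, all but NimB1, had their highest control value in control replicate 1. The share of all tested genes with the same lowest or highest library was not computed. The pattern is therefore not shown to be particular to the NimB genes. Without overexpression replicate 3, the log2 differences were -0.44 for NimB3, -0.45 for NimB4 and -0.48 for NimB5, and all 3 stayed past the threshold (limma adjusted p = 0.0429, 0.0385 and 0.0416, in ranges over 14 alternatives of 0.00596 to 0.0429, 0.0148 to 0.0941 and 0.00852 to 0.0604).

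Ratios between NimB genes within a library do not depend on how libraries are scaled. NimB2 supplied 62.9%, 63.9% and 62.9% of the summed NimB FPKM in overexpression replicates 1, 2 and 3, against 59.5%, 59.8% and 58.2% in control replicates 1, 2 and 3. NimB3 supplied 22.1 ± 0.656% in overexpressing flies and 25.9 ± 0.674% in controls (SD, n = 3 each). The summed level itself was 279 ± 30.9 FPKM in overexpressing flies and 334 ± 15.3 FPKM in controls. The share of NimB2 was higher, and that of NimB3 lower, in every overexpression library than in any control library.

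All 10 pairs of members were compared in this way. In 6 of them the groups did not overlap, and these were the pairs that join NimB1 or NimB2 with NimB3, NimB4 or NimB5. These pairs share members and restate the levels given above, so they are not separate results. The share of such pairs among other genes was not computed. The log2 ratio of NimB2 to NimB3 was 1.52 ± 0.05 in overexpressing flies and 1.19 ± 0.05 in controls (SD, n = 3 each), a difference of 0.32. The ratio of NimB2 to NimB4 differed by 0.53, that of NimB2 to NimB5 by 0.49, and those of NimB1 to NimB3, NimB4 and NimB5 by 0.45, 0.65 and 0.62. Each of these 6 differences had p = 0.1 in a two-sided exact permutation test over 6 libraries, the smallest p that 3 against 3 allow, and 0.167 after Benjamini-Hochberg adjustment over the 10 pairs. With 3 libraries a group, no pair could pass the threshold in this test, so a difference between members in their response is neither shown nor excluded by it.

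Within the 3 genes that fell, the ratios overlapped between groups. The log2 ratio of NimB4 to NimB5 was -0.63 ± 0.10 in overexpressing flies and -0.60 ± 0.05 in controls (SD, n = 3 each; exact permutation p = 0.7, adjusted p = 0.7). In linear terms NimB5 stood at 1.55 ± 0.106 times NimB4 in overexpressing flies and 1.51 ± 0.0542 times in controls. The ratio of NimB1 to NimB2 differed by 0.12, that of NimB3 to NimB4 by 0.21 and that of NimB3 to NimB5 by 0.17, with exact permutation p of 0.3, 0.4 and 0.3.

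**Figure D2:**
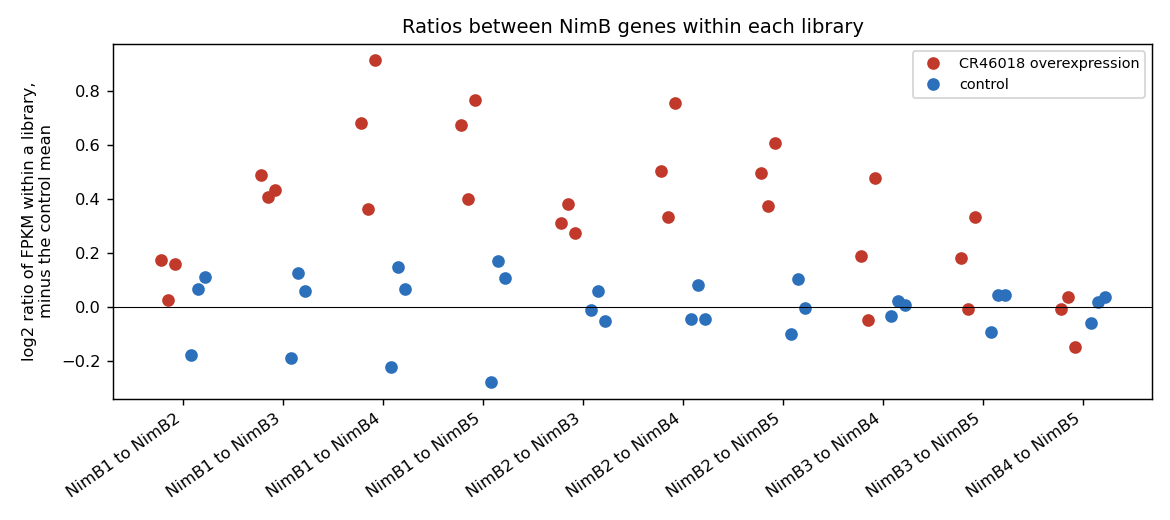
Log2 ratio of FPKM for each of the 10 pairs of NimB genes in each library, minus the mean of the control libraries (vertical axis), with 1 point per library. Ratios of NimB1 or NimB2 to NimB3, NimB4 or NimB5 are higher in all 3 overexpression libraries than in any control library, and the ratio of NimB4 to NimB5 overlaps.

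The genes that fell are neighbours within the cluster. NimB3, NimB4 and NimB5 are consecutive, and NimB1 and NimB2 occupy the other end. Beyond NimB5 lies He, which encodes the hemocyte membrane protein Hemese and whose exons overlap those of NimB5 by 78 bp. He was at 0.433, 0.222 and 0 FPKM in overexpression replicates 1, 2 and 3, against 0.0772, 0.0776 and 0.509 FPKM in control replicates 1, 2 and 3, too low to be tested. The next gene is NimC1 (13973158 to 13976769, minus strand), which encodes a phagocytosis receptor of hemocytes. It measured 2.58, 2.29 and 2.09 FPKM in overexpression replicates 1, 2 and 3, against 4.99, 4.71 and 5.10 FPKM in control replicates 1, 2 and 3. Its log2 difference was -0.84 ± 0.09 (SE; limma adjusted p = 0.00172), with no overlap between the groups and a call in all 13 alternatives that tested it.

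Of the 5 other genes tested within 20 kb of the cluster, 2 fell and 0 rose. Besides NimC1, Vajk3 (13944756 to 13947476) fell, with 0.681 ± 0.226 FPKM in overexpressing flies and 4.23 ± 1.25 FPKM in controls (SD, n = 3 each; log2 difference -1.62 ± 0.18 SE, limma adjusted p = 0.00191). With a pseudocount of 5 its difference was -0.69 and that of NimC1 -0.44. NimA, which adjoins NimB1 on its other side, measured 1.73 ± 0.142 FPKM in overexpressing flies and 1.86 ± 0.372 FPKM in controls (log2 difference -0.06, limma adjusted p = 0.848), and its sign turned with rescaling to a common total. Along the chromosome, NimA, NimB1 and NimB2 did not pass, and the following NimB3, NimB4, NimB5 and NimC1 were lower. He, between NimB5 and NimC1, was not tested. The next gene after NimC1, Cyp28a5, did not pass (log2 difference -0.12, limma adjusted p = 0.433). Vajk3 lies on the NimA side, so the lower genes were not all at one end.

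**Figure D3:**
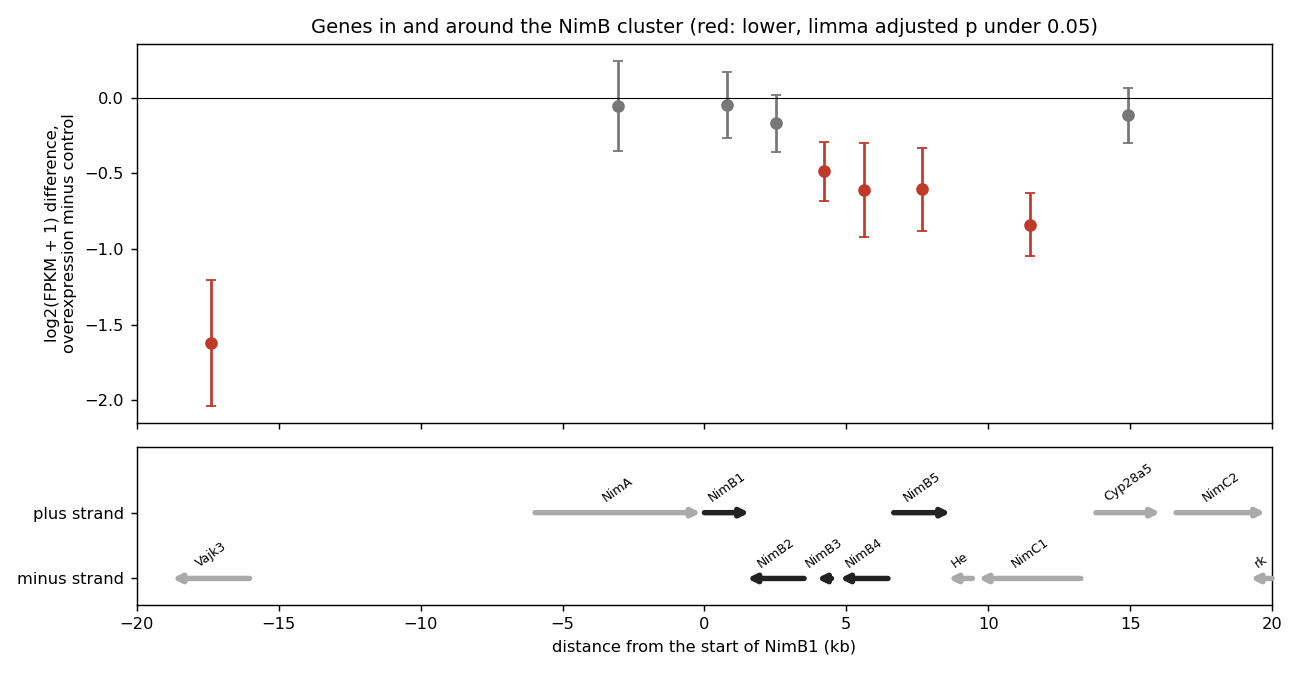
Upper panel, log2(FPKM + 1) difference (overexpression minus control) with its 95% interval for tested genes within 20 kb, against distance from the start of NimB1 in kb, with genes called lower by limma in red. Lower panel, gene positions and strands, NimB genes in black. The long gene Ance-3, whose log2 difference was -0.13, is left out of the drawing. Vajk3, NimB3, NimB4, NimB5 and NimC1 are lower, and NimA and NimB1 lie near 0. NimB2 is at -0.17, with an interval of -0.36 to 0.02.

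Among the 7 other members of the Nimrod family and its relatives, 4 were high enough to be tested, of which 1, NimC1, fell and 0 rose by limma. The same counts came from voom, and the number at an unadjusted p under 0.05 was also 1. The median difference of the 4 was -0.19. Eater, the receptor for Gram-positive bacteria, measured 3.89, 3.01 and 2.44 FPKM in overexpression replicates 1, 2 and 3, against 4.19, 4.80 and 3.39 FPKM in control replicates 1, 2 and 3 (log2 difference -0.32, limma adjusted p = 0.25). The groups overlapped, and overexpression replicate 3 was again the lowest. Draper (drpr), the engulfment receptor for dying cells, was at 25.5 ± 1.22 FPKM in overexpressing flies and 23.7 ± 0.174 FPKM in controls (log2 difference 0.10, limma adjusted p = 0.341). NimC2 stayed under 0.47 FPKM and NimC4, also an engulfment receptor, under 0.31 FPKM in every library. NimC3 had 0 reads in all 6.

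Other phagocytosis receptors and opsonins mostly did not pass. Of 12 listed genes 10 were tested, of which 1 fell and 0 rose by limma and by voom, with 2 at an unadjusted p under 0.05, and their median difference was 0.00. The gene that fell was Sr-CI, a scavenger receptor that binds bacteria. It measured 8.92, 7.18 and 4.5 FPKM in overexpression replicates 1, 2 and 3, against 11.8, 11.9 and 12.5 FPKM in control replicates 1, 2 and 3 (log2 difference -0.77 ± 0.19 SE, limma adjusted p = 0.0415). As with the NimB genes, overexpression replicate 3 was the lowest library. The call of Sr-CI was lost in 6 of 14 alternatives, among them each of the 3 that left out a control library, where adjusted p reached 0.107 without control replicate 2 (0.0946 without control replicate 1, 0.0959 without control replicate 3, and 0.0775 without overexpression replicate 2, in a range from 0.00797 to 0.107).

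**Figure D4:**
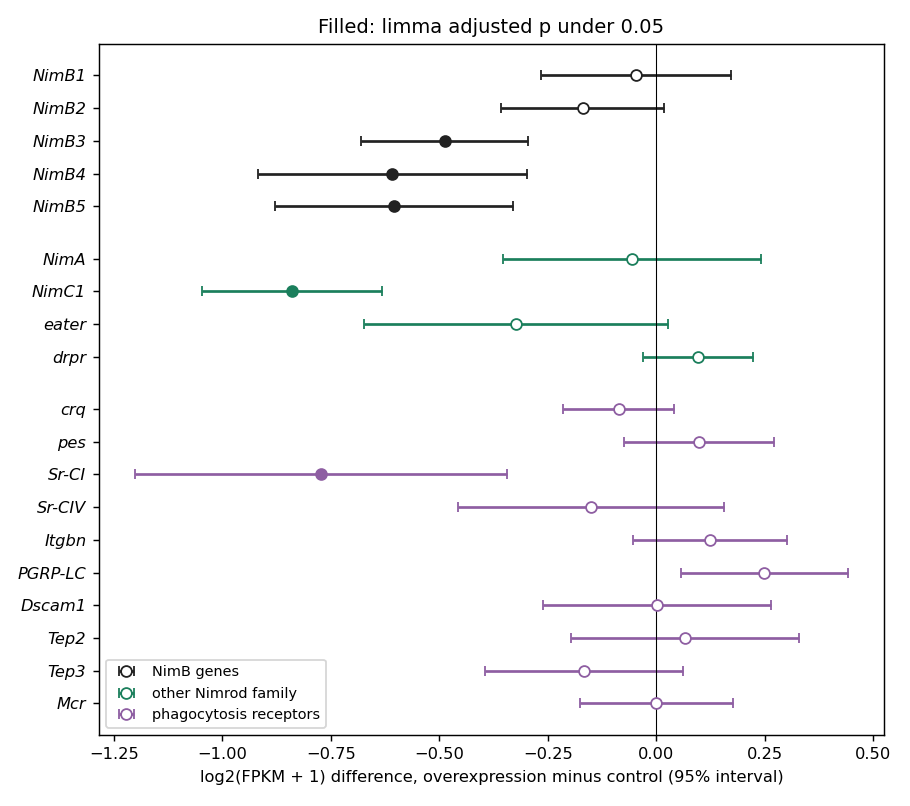
Log2(FPKM + 1) difference (overexpression minus control, horizontal axis) with its 95% interval for the NimB genes, the other tested Nimrod family genes and the tested phagocytosis receptors. Filled points passed the limma threshold. NimB3, NimB4, NimB5, NimC1 and Sr-CI are lower. Of the other intervals, that of eater reaches -0.67, and that of PGRP-LC, 0.06 to 0.44, leaves out 0 although its adjusted p of 0.116 did not pass.

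Hemocytes and fat body are known sources of NimB proteins, and markers of both were read beside them. Of 8 tested hemocyte markers, 1 fell (NimC1) and 0 rose by limma, with 4 at an unadjusted p under 0.05, and voom called 1 lower and 1 higher. Their median difference was -0.16, and their summed level ran from 77.9 to 96.0 FPKM in overexpressing flies and from 94.5 to 98.3 FPKM in controls. Hml, the hemolectin gene, measured 27.3, 21.1 and 18.3 FPKM in overexpression replicates 1, 2 and 3, against 28.7, 26.8 and 28.4 FPKM in control replicates 1, 2 and 3 (limma adjusted p = 0.152). Pxn, a peroxidase gene of hemocytes, was at 4.47 ± 0.169 FPKM in overexpressing flies and 5.46 ± 0.397 FPKM in controls (limma adjusted p = 0.108). The crystal cell factor gene lz differed by 0.43 in the other direction (limma adjusted p = 0.124; it passed with voom, adjusted p = 0.0223, the lowest of 13 alternatives that reached 0.337). PPO1 was not matched in the table.

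Of 6 tested fat body markers, 3 fell and 0 rose by limma, with 5 at an unadjusted p under 0.05, and voom called 5 lower and 0 higher. Their median difference was -0.87. Their summed level ran from 599.7 to 703 FPKM in overexpressing flies and from 926 to 1042 FPKM in controls. Most of that sum was Desat1 alone, which averaged 568 FPKM in overexpressing flies and 769 FPKM in controls. The lipoprotein gene apolpp measured 32.9, 42.1 and 20.1 FPKM in overexpression replicates 1, 2 and 3, against 129.8, 91.5 and 98.0 FPKM in control replicates 1, 2 and 3 (log2 difference -1.76 ± 0.24 SE, limma adjusted p = 0.00478). Lsd-1, which encodes a perilipin of lipid droplets, differed by -1.0 (limma adjusted p = 0.0111) and Desat1, a fatty acid desaturase gene, by -0.44 (limma adjusted p = 0.00471). Overexpression replicate 3 was the lowest library for apolpp, Lsd-1 and Desat1, as for all 5 NimB genes. Of the other tested fat body markers, Apoltp and Fbp2 were also lowest there, and Lsp1beta was lowest in overexpression replicate 1. The share of all tested genes lowest in replicate 3 was not computed. The part of a smaller share of fat body or hemocyte RNA in the falls of the NimB genes was not tested. FASN1 was not matched.

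**Figure D5:**
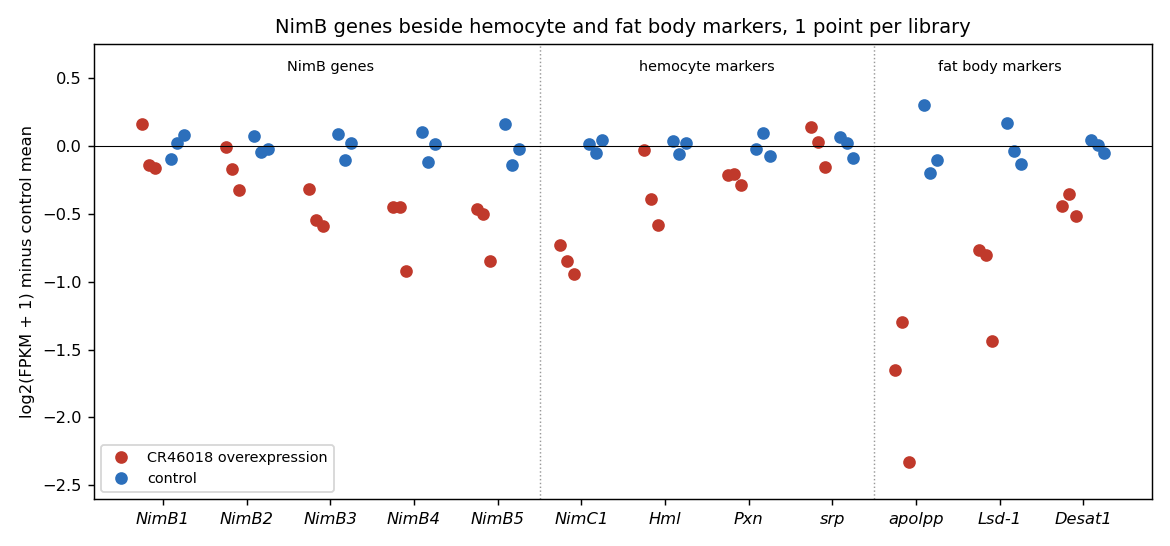
Log2(FPKM + 1) minus the control mean (vertical axis) for the NimB genes, 4 hemocyte markers and 3 fat body markers, with 1 point per library. NimB3, NimB4 and NimB5 are lowered by less than NimC1, apolpp and Lsd-1 and by more than Hml, Pxn, srp and Desat1. Markers drawn are part of those tested, and the fat body markers drawn are those called by limma. Hemocyte markers not drawn are eater (-0.32), crq (-0.09), PPO2 (0.22) and lz (0.43). Fat body markers not drawn are Apoltp (-0.36), Lsp1beta (-0.74) and Fbp2 (-1.29).

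Genes of the nutrient response in fat body, the setting in which NimB5 is known from larvae, went both ways. Of 7 tested, 1 rose and 2 fell by limma, with 4 at an unadjusted p under 0.05 and a median difference of -0.18, and voom called 2 higher and 1 lower. Thor, a translation inhibitor induced by starvation, rose to 472 ± 60.3 FPKM in overexpressing flies, against 316 ± 25.3 FPKM in controls (SD, n = 3 each; log2 difference 0.57, limma adjusted p = 0.0117). The sugar-responsive gene tobi fell by 1.02 on the log2 scale (limma adjusted p = 0.0273) and the lipase gene bmm by 0.23 (limma adjusted p = 0.0307). Of 14 alternatives, 5 ended the call of tobi and 9 that of bmm, with adjusted p up to 0.0816 and 0.111. InR was not matched, and Pepck1 had 0 reads.

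Markers of other tissues did not move as one. Of 8 tested muscle markers 5 fell and 0 rose, with a median of -0.44 (Mlc2 by 0.69, TpnC4 by 0.57 and Tm2 by 0.46, limma adjusted p = 0.00646, 0.00788 and 0.0333), and 7 of 14 alternatives ended the call of Tm2. Of 6 gut markers 1 rose (betaTry, by 0.57) and 1 fell (Mal-A1, by 0.62), with alphaTry at 0.25 (limma adjusted p = 0.0505), and voom called 2 higher and 1 lower. Of 14 alternatives, 6 ended the call of betaTry, and 5 brought alphaTry past the threshold. By limma and by voom, 0 of 8 glia and neuron markers (median -0.04, 1 at an unadjusted p under 0.05; nrv2, moody and Gs2 at -0.12 each), 0 of 5 testis markers (median 0.03, 0 at an unadjusted p under 0.05; ProtA, aly and dj at 0.08, 0.14 and -0.03) and 0 of 5 accessory gland markers (median -0.08, 1 at an unadjusted p under 0.05; SP, Acp62F and Acp53Ea at -0.27, -0.21 and -0.07) passed.

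The profile of each NimB gene over the 6 libraries was set against those of 9027 other genes with a mean of at least 5 FPKM, by the root mean square difference of centred log2(FPKM + 1) values. The gene nearest to NimB4 was its divergent neighbour NimB5, at 0.05, and NimB4 was in turn the second nearest to NimB5. This likeness includes the difference between the groups that both genes share. Genes nearest to a member were thus picked in part by that difference, and their own calls are not separate results. The nearest to NimB5 was CG16704 at 0.04 (log2 difference between groups -0.65, limma adjusted p = 0.0105), and the second nearest to NimB4 was CG13067 at 0.05 (-0.54, limma adjusted p = 0.0419). With a pseudocount of 5, CG16704 stood at rank 102 and CG13067 at rank 24, and NimB4 and NimB5 were each other's nearest gene.

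Nearest to NimB3 were Scp2, which encodes a sarcoplasmic calcium-binding protein, and CG7966, both at 0.05 and both lower in overexpressing flies (log2 differences -0.45 and -0.45, limma adjusted p = 0.00751 and 0.0152). NimB4 was at rank 325 by likeness to NimB3. Nearest to NimB2 were CG5515 and CG5885, both at 0.02, and nearest to NimB1 were fsd and Membrin, both at 0.04, none of which passed the limma threshold (adjusted p from 0.261 to 0.712). All of these nearest genes were picked by profiles that include the group difference, so whether they passed restates the result of the member. NimB1 and NimB2, the pair with overlapping exons, differed by 0.12, close to the 0.11 between NimB3 and NimB5. NimB1 stood at rank 1670 by likeness to NimB2, and NimB5 at rank 118 by likeness to NimB3.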

How the data were processed

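The authors sequenced poly(A) RNA from both ends of each fragment, used HISAT2 2.0.5 for alignment and featureCounts 1.5.0-p3 for gene counts, per the labels' protocols, on dm6, per the submitters' processing notes. The deposited values are FPKM, 1 column per library, and no source used here gives the conversion from counts to FPKM. Symbols came from a FlyBase name table, positions and exonic lengths from the Ensembl BDGP6 annotation (dm6 coordinates), and 1 marker was matched by a RefSeq synonym. FPKM times length gave whole reads in each of the 6 libraries for 97.6% of 15683 genes (tolerance 0.01 reads), which gave the reads quoted. Genes that averaged at least 1 FPKM were fitted with limma 3.58.1 in R 4.3.3 (mean-variance trend, log2(FPKM + 1)). Named genes were the NimB genes, the other Nimrod family, phagocytosis receptors past the threshold, up to 3 genes with the smallest p of each other list, genes inside the cluster, called genes within 20 kb, and the 2 nearest profiles per member. Hml, He, Cyp28a5, crq, PPO2, Apoltp, Lsp1beta and Fbp2 were named after their values were seen. Members and lists were chosen with earlier results of these data known. Alternatives changed the pseudocount, filter, scaling, test, block and libraries. No protein or promoter sequence was used here.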

Additional observations from a re-analysis of the deposited data

How the results depend on the processing

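NimB2 and NimB3 kept their direction and their side of the threshold in all 14 alternatives, with log2 differences from -0.25 to -0.07 and from -0.57 to -0.39. NimB4 (-0.69 to -0.40) lost its call in 4 of 14 alternatives. These were no filter on low values, where 15952 genes were tested and the difference stayed at -0.61, and the omission of each control replicate. NimB5 lost its call without control replicate 1 (limma adjusted p = 0.0604). Leaving out 1 library at a time gave -0.69 to -0.45 for NimB4, -0.68 to -0.48 for NimB5 and -0.15 to 0.0095 for NimB1. NimB1 was also positive with rescaling to a common total (0.0452) and with voom on recovered reads (0.0178), never past the threshold. Over all genes, calls were 826 higher and 484 lower with rescaling, against 300 and 773 as deposited, so 63.1% against 28% of calls were higher, and the median of all genes moved to 0.08. Voom called 860 higher and 728 lower. Leaving out 1 library gave 137 to 283 higher and 427 to 629 lower, with the fewest without overexpression replicate 3. The deposited FPKM totals, which rescaling makes equal, were 646862 to 668227 in overexpressing flies and 694593 to 708815 in controls. With rescaling, NimB3, NimB4 and NimB5 passed at limma adjusted p of 0.0242, 0.0492 and 0.035. The cause of these moves in calls was not tested. The log2 ratio of NimB4 to NimB5 differed by -0.0773 to 0.0158 with 1 library left out, turning positive without overexpression replicate 3. Of 37 other named genes, signs turned only for small differences: with rescaling NimA 0.0052, dj 0.062, Acp53Ea 0.0228, fsd 0.0203 and Membrin 0.01, with quantile normalization Gs2 0.0132, dj 0.0602 and Acp53Ea 0.0487, with voom dj 0.028, and with 1 library left out NimA (-0.1667 to 0.0175), aly (-0.0225 to 0.2318) and dj (-0.0814 to 0.0123). Deviations of same-numbered libraries correlated at 0.0456, -0.0761 and 0.0264 across genes. Those of differently numbered libraries ran from -0.109 to 0.0839. Same-numbered libraries thus showed no clear likeness, which does not settle whether they were paired. With the replicate number as a block, 219 genes were higher and 616 lower, and NimB3, NimB4 and NimB5 passed, at adjusted p of 0.0104, 0.0369 and 0.0195 (limma). Counting error limits NimB4 and NimB5 most, with 114 and 180 reads in overexpression replicate 3.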
